A study of Mus musculus with 12 samples.

Results

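The genes described here make, clear and sense prostaglandins, and they were followed in the fetal membranes of mice, which surround the fetus and its fluid. The 10 members were picked by symbol from the 48795 genes of the count table, and each matched 1 Ensembl gene ID. They are the cyclooxygenases Ptgs1 and Ptgs2, the synthases Ptges, Ptges2, Ptges3 and Ptgis, the degrading enzyme Hpgd, the transporter Slco2a1 and the receptors Ptger2 and Ptger4. All 10 passed the filter on low counts, among 18153 genes tested. Ptger2 was at 0.0329 to 0.249 CPM (counts relative to a TMM-adjusted library size) in 1 group, and the filter needs enough counts in 1 group only.

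RNA was sequenced in 12 libraries, 3 in each of 4 groups. The groups were wild-type (WT) membranes at embryonic day 12 (E12), WT membranes labelled embryonic day 18 (E18), and membranes of double knockout (DKO) mice at both days. The DKO mice lack biglycan and decorin, a pair of small proteoglycans that bind collagen. By label the WT strain is C3H and the DKO strain C3H and C57BL/6, so genotype and strain cannot be told apart. The tissue is a mixture, and in such bulk RNA fewer cells of a type and less RNA per cell cannot be told apart. The labels do not say whether the libraries come from separate litters, so p-values measure the spread between these libraries. The series' title names preterm birth as the setting, and the comparisons ask how membranes lacking both proteoglycans differ at each day.

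Prostaglandins are lipid signals made from arachidonic acid, which phospholipases release from membranes. A cyclooxygenase turns it into prostaglandin H2, and a terminal synthase turns that into prostaglandin E2, prostacyclin or another product. The transporter Slco2a1 carries prostaglandins into cells, where Hpgd inactivates them. In late pregnancy the fetal membranes are a known source of prostaglandin E2, which acts on the cervix and uterus, and the balance of synthesis and breakdown is much studied in labour.

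The libraries did not all fit their stage labels, which touches each comparison below. Of beta-globin counts, the embryonic genes Hbb-y and Hbb-bh1 held 82.3 to 85.1% in E12 DKO and 1.33 to 2.67% in E18 DKO. Their share was 74.8 to 87.8% in the libraries labelled E18 WT, near the E12 DKO range, and 14.8, 95.1 and 97.1% in E12 WT 1, 2 and 3. E12 WT 1 therefore stood apart from its group, as did library 3 labelled E18 WT. The latter had 71.4 CPM of the decidual transcript Prl8a2, against at most 2.12 CPM elsewhere. It also had 556 CPM of the trophoblast transcript Tpbpa and 165 CPM of Prl3b1, against at most 24.9 and 16.4 CPM elsewhere. Mitochondrial genes took 21.2% of counts for E12 WT 3 and 3.58 to 7.78% elsewhere. Given the globin shares, genotype and a difference of stage cannot be told apart in E18 DKO against the libraries labelled E18 WT. Bgn and Dcn were lower in each DKO library (at most 25.1 and 8.44 CPM) than in each WT library (at least 223 and 198 CPM). Total counts ran from 19967593 to 33065424 per library.

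Ptgs1, the constitutive cyclooxygenase, was the member with the lowest adjusted p in E18 DKO. It was at 37.4, 29.4 and 30.4 CPM across E18 DKO, against 6.48, 6.74 and 9.19 CPM under the E18 WT label. The E12 DKO values were 6.70, 6.85 and 7.42 CPM, and those of E12 WT 13.2, 5.57 and 5.77 CPM. All 3 E18 DKO libraries lay above the other 9, and E12 WT 1 was the highest of those 9. Ptgs1 was higher in E18 DKO than under the E18 WT label, with a log2 fold change of 2.12 ± 0.32 (SE, n = 3 per group, adjusted p = 0.000635). This p and those below come from edgeR's quasi-likelihood test adjusted by Benjamini-Hochberg across every tested gene, with calls under 0.05. At E12 the difference was -0.22 ± 0.31 (adjusted p = 0.688), with an interval (95%) of -0.91 to 0.46, and 0.31 without E12 WT 1. Ptgs1 lies at bases 36230426 to 36252272 of chromosome 2, on the + strand of GRCm38.

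Ptgs2, the inducible cyclooxygenase that inflammatory signals raise, did not follow Ptgs1. The E18 DKO libraries held 19.4, 6.14 and 18.7 CPM, against 16.3, 11.4 and 19.0 CPM under the E18 WT label. The E12 DKO values were 9.79, 10.4 and 15.0 CPM, and those of E12 WT 9.29, 15.9 and 22.4 CPM. The 4 groups overlapped, and E18 DKO 2 was the lowest of the 12 libraries. The E18 log2 difference between DKO and WT was -0.08 ± 0.43 (adjusted p = 0.898), and that of E12 -0.43 ± 0.43 (0.559), the latter -0.10 without E12 WT 3 and -0.70 without E12 WT 1. The intervals, -1.02 to 0.87 and -1.38 to 0.51, leave room for a change of up to about 1 log2 unit either way at E18. Without E18 DKO 2 the E18 difference was 0.29, so its sign is not settled. Ptgs2 lies at bases 150100031 to 150108227 of chromosome 1, on the + strand.

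**Figure D1:**
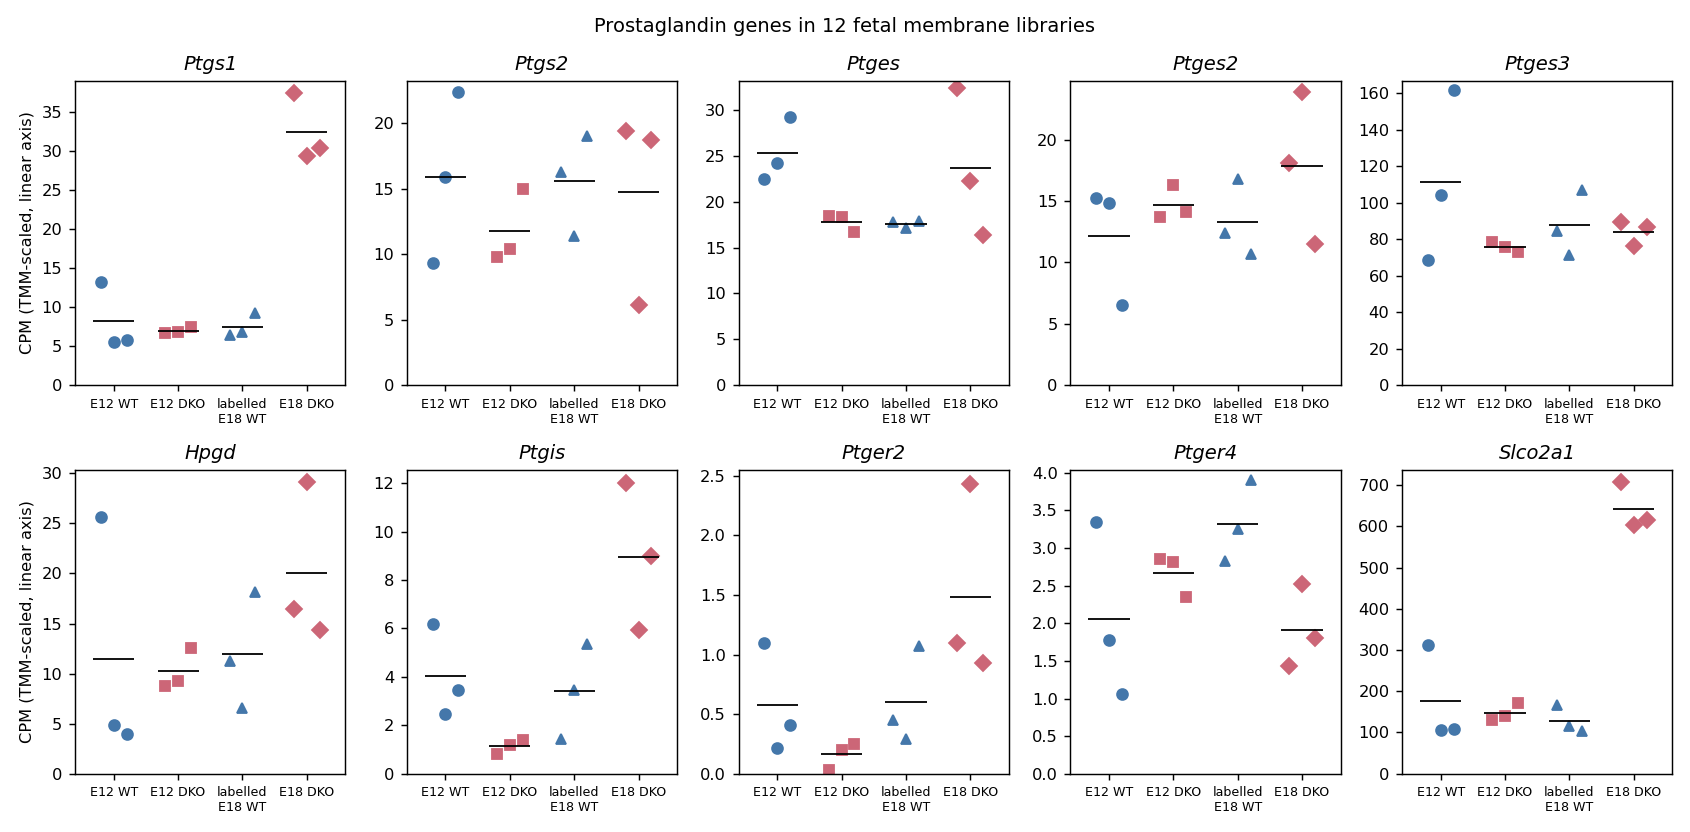
CPM (linear axis from 0, scaled by TMM factors) of the 10 genes in each of 12 libraries. Points are libraries in the order of their replicate numbers, circles E12 WT, squares E12 DKO, triangles the libraries labelled E18 WT and diamonds E18 DKO, and bars are group means of 3. Ptgs1 and Slco2a1 were higher in all 3 E18 DKO libraries than in the other 9, while Ptgs2 overlapped in all 4 groups.

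The split between the cyclooxygenases shows in their ratio per length within a library. Levels per length are TPM (counts divided by exon length and scaled to a common sum). The log2 ratio of Ptgs2 to Ptgs1 TPM was -1.19, -2.50 and -0.94 in E18 DKO, so that Ptgs1 was the more abundant of the pair in each. It was 1.09, 0.52 and 0.81 in the libraries labelled E18 WT and 0.31, 0.36 and 0.78 in E12 DKO, with Ptgs2 ahead in all 6. In E12 WT it was -0.74, 1.27 and 1.72, and E12 WT 1 was the library with Ptgs1 ahead. Ratios between members are given without a test.

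**Figure D2:**
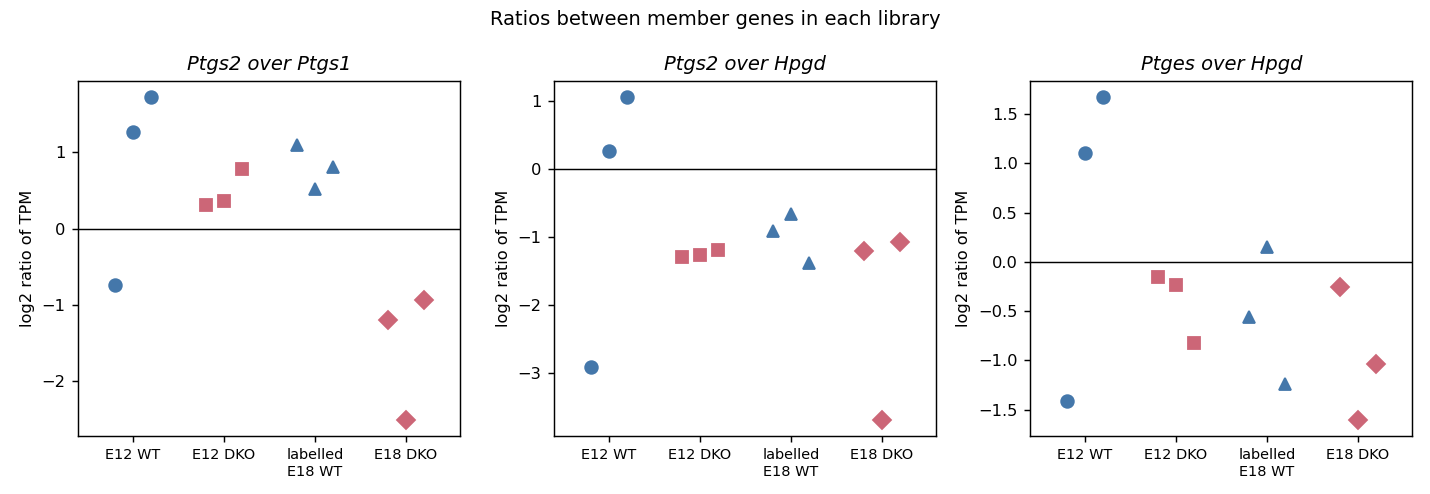
Log2 ratios of TPM within each library for Ptgs2 over Ptgs1, Ptgs2 over Hpgd and Ptges over Hpgd, with groups on the horizontal axis and 1 point per library (0 marks equal levels). The Ptgs2 to Ptgs1 ratio was below 0 in all 3 E18 DKO libraries and in E12 WT 1, and above 0 in the other 8.

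The promoter windows of both cyclooxygenases and of the transporter Slco2a1 are printed to set the members that rose together beside the inducible gene that did not. RefSeq's table for GRCm38.p6 holds a window of 300 bases (250 before the start site and 50 from it) for 9 of the 10 members, all but Ptgis. They are written 5′ to 3′ on the gene's strand, all of them +, at chr2:36230176-36230475 for Ptgs1, chr9:103008237-103008536 for Slco2a1 and chr1:150099781-150100080 for Ptgs2. Capitals mark matches to the motifs searched on both strands: TATAAA (the TATA box), CCAAT (the CCAAT box), GGGCGG (the GC box), TGACG (the half-site of the cyclic AMP response element) and an NF-kappaB-like motif.
Ptgs1: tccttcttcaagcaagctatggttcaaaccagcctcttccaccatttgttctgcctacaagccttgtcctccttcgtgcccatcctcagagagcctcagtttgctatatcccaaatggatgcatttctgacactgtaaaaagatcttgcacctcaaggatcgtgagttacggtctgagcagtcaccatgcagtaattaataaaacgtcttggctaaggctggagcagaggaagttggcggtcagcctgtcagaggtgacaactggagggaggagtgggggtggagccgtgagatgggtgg
Slco2a1: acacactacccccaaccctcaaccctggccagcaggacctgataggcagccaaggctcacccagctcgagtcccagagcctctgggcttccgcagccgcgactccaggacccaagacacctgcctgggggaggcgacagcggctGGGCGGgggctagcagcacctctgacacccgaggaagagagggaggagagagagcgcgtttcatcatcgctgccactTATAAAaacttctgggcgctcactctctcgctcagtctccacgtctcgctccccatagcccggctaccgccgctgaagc
Ptgs2: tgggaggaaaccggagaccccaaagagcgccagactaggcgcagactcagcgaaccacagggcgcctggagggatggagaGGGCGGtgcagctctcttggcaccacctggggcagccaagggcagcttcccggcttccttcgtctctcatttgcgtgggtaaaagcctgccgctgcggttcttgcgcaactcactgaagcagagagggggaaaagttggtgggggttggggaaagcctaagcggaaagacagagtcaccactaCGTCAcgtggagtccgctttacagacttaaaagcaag
The Ptgs1 window held no match to any of these motifs and had 50.7% G and C. The Slco2a1 window (64.0%) held TATAAA, found in 13.6% of all 32851 windows of that length in the table, and GGGCGG, found in 35.7%. The Ptgs2 window (59.3%) held GGGCGG and TGACG on the minus strand, the latter found in 20.8% of all windows. CCAAT and the NF-kappaB-like motif, in 37.4 and 20.7% of all windows, matched none of these 3. Ptgs1 and Slco2a1 therefore shared no match here, and a match describes letters, not binding.

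Slco2a1, which takes up prostaglandins for breakdown, showed the other large rise. The E18 DKO libraries held 707, 604 and 616 CPM, against 167, 116 and 104 CPM under the E18 WT label. The E12 DKO values were 130, 141 and 172 CPM, and those of E12 WT 313, 106 and 108 CPM. As for Ptgs1, the 3 E18 DKO libraries lay above the other 9 and E12 WT 1 was next. Slco2a1 was higher in E18 DKO than under the E18 WT label by 2.32 ± 0.39 on the log2 scale, about 5-fold (4.99, adjusted p = 0.00112). At E12 the difference was -0.25 ± 0.38 (adjusted p = 0.716). Without E12 WT 1 it was 0.47 (adjusted p = 0.141), and with scaling by library size alone 0.08, so E12 gives no stable direction. The Ensembl gene spans bases 102988712 to 103096002 of chromosome 9, on the + strand, and starts upstream of the RefSeq window.

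Hpgd, the dehydrogenase that inactivates prostaglandins, varied widely within groups. The E18 DKO libraries held 16.5, 29.1 and 14.4 CPM, against 11.3, 6.59 and 18.1 CPM under the E18 WT label. The E12 DKO values were 8.81, 9.22 and 12.6 CPM, and those of E12 WT 25.6, 4.85 and 3.94 CPM. E12 WT 1 held over 5 times the Hpgd of its group's other libraries. Its log2 difference was 0.74 ± 0.63 at E18 (adjusted p = 0.366) and -0.17 ± 0.63 at E12 (adjusted p = 0.893). Without E12 WT 1 the E12 value was 1.21 (adjusted p = 0.0754). Without that library and library 3 labelled E18 WT it was again 1.21 and was called (0.0425), and at E18 it was then 1.17 and called (0.0209). Without E18 DKO 2, the highest library of its group, the E18 value was 0.37 (adjusted p = 0.704). The Hpgd calls thus turn on these libraries. The gene lies at bases 56294585 to 56321043 of chromosome 8, on the + strand.

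The ratios of synthesis to breakdown transcripts spread most in E12 WT, where Hpgd did. The log2 ratio of Ptgs2 to Hpgd TPM was -1.29, -1.27 and -1.19 in E12 DKO and -0.91, -0.66 and -1.38 in the libraries labelled E18 WT. It was -1.21, -3.69 and -1.07 in E18 DKO, where library 2 had the lowest Ptgs2 and the highest Hpgd of its group. In E12 WT it was -2.91, 0.27 and 1.06, the widest range of the 4 groups. The ratio of Ptges to Hpgd was above 0 in E12 WT 2 and 3 (1.10 and 1.67) and in library 2 labelled E18 WT (0.15), and below 0 in the other 9.

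Ptgis, prostacyclin synthase, was the third member called at E18. The E18 DKO libraries held 12.0, 5.93 and 8.99 CPM, against 1.43, 3.46 and 5.38 CPM under the E18 WT label. In E12 DKO it was at 0.822, 1.19 and 1.38 CPM, below each of the 6 WT libraries, with 6.17, 2.46 and 3.47 CPM in E12 WT. It was higher in E18 DKO than under the E18 WT label (1.39 ± 0.50, adjusted p = 0.0422). That call ended without E18 DKO 1 (1.13, adjusted p = 0.142) or 3 (1.39, 0.0794) and without library 1 (1.02, 0.122) or 2 (1.40, 0.0992) labelled E18 WT. It also ended with scaling by library size alone (1.03, adjusted p = 0.101) and when only those 6 libraries were fitted (1.40, 0.0506). At E12 it was at -1.83 ± 0.51 and missed the threshold (adjusted p = 0.0907), though the DESeq2 Wald test called it (adjusted p = 0.0104). Set against the E18 WT label, E12 DKO was at -1.59 ± 0.51 (adjusted p = 0.404), without overlap, as were 30% of all genes. The sign of the genotype difference in Ptgis was thus opposite at the 2 labelled days. The gene lies on the other strand of chromosome 2, at bases 167191805 to 167240604.

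Of the prostaglandin E synthases, Ptges is the inducible membrane enzyme, Ptges2 a second membrane-associated form and Ptges3 a cytosolic form that is also the Hsp90 co-chaperone p23. Ptges was at 22.5, 24.2 and 29.3 CPM in E12 WT, against 18.5, 18.3 and 16.7 CPM for E12 DKO. The 2 groups did not overlap in CPM but did in TPM, which is scaled without the TMM factors, at 10.8 to 12.8 and 11.1 to 12.7. The TPM means were 11.6 in E12 WT and 12.0 in E12 DKO, the order reversed, so this difference depends on the scaling. The log2 difference was -0.50 ± 0.22 (adjusted p = 0.194). At E18 Ptges was at 32.4, 22.3 and 16.4 CPM in DKO, against 17.8, 17.1 and 17.9 CPM under the E18 WT label, with a difference of 0.43 ± 0.22 (adjusted p = 0.141). E18 DKO 1 was the highest of those 6 and E18 DKO 3 the lowest. Without the first the value was 0.14 (adjusted p = 0.612), without the third it was 0.64 and called (0.0291), and with scaling by library size alone it was 0.08 (0.807). The 2 WT groups differed by -0.52 ± 0.22 in Ptges (adjusted p = 0.247), E12 WT being the higher in CPM. Their TPM means were 11.6 in E12 WT and 11.7 under the E18 WT label, so this difference depends on the scaling too.

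Ptges2 was at 6.53 to 23.9 CPM over the 12 libraries, lowest in E12 WT 3 and highest in E18 DKO 2. Its log2 difference was 0.27 ± 0.34 at E12 (adjusted p = 0.661) and 0.42 ± 0.34 at E18 (0.336), the latter 0.16 without E18 DKO 2 and 0.66 without E18 DKO 3, and not called in either case. Ptges3 was at 78.5, 75.6 and 72.9 CPM in E12 DKO, against 68.7, 104 and 162 CPM for E12 WT, with a difference of -0.56 ± 0.27 (adjusted p = 0.219). The highest value, 162 CPM, came from E12 WT 3, the library with the high mitochondrial share. Without it the difference was -0.19 (adjusted p = 0.654), with scaling by library size alone -0.25 (0.567), and without E12 WT 1 -0.81 and called (0.0251). The size and the call of the Ptges3 difference thus turn on which E12 WT library is left out. At E18 Ptges3 was at -0.05 ± 0.26 (adjusted p = 0.883), with an interval of -0.63 to 0.53. Its processed copy Ptges3-ps drew 188 counts in all against 26748 for Ptges3, so some reads may be exchanged.

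Both E receptors signal through cyclic AMP. Ptger2 was the least abundant member per length in 3 of 4 groups, and was at 1.10, 2.43 and 0.926 CPM in E18 DKO, against 0.452, 0.293 and 1.07 CPM under the E18 WT label. The E12 DKO values were 0.0329, 0.203 and 0.249 CPM (1, 6 and 9 counts), and those of E12 WT 1.10, 0.214 and 0.412 CPM. The log2 difference was 1.31 ± 0.75 at E18 (adjusted p = 0.179) and -1.78 ± 0.82 at E12 (adjusted p = 0.211), the latter -0.87 without E12 WT 1. Without E18 DKO 2, the highest library, the E18 value was 0.75 (adjusted p = 0.496). Without library 3 labelled E18 WT it was 1.99 (0.0934), and with E12 WT 1 left out as well 2.00 and called (0.0437). E12 DKO against the libraries labelled E18 WT was at -1.84 ± 0.82 (adjusted p = 0.536), and -1.16 without library 3. Counts this low limit what can be said of Ptger2.

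Ptger4 was lower in each E18 DKO library, at 1.43, 2.52 and 1.80 CPM in DKO, against 2.83, 3.25 and 3.90 CPM under the E18 WT label. The 2 groups did not overlap, as for 56.9% of all genes, but the log2 difference of -0.79 ± 0.41 missed the threshold (adjusted p = 0.137). With scaling by library size alone it was -1.15 and called (0.0405). At E12 it was at 2.86, 2.81 and 2.35 CPM in DKO and at 3.35, 1.78 and 1.06 CPM in WT (0.37 ± 0.40, adjusted p = 0.602), a value that was 0.90 without E12 WT 1 and 0.06 without E12 WT 3. Ttc33 overlaps Ptger4 on the other strand, and the counting used strand.

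**Figure D3:**
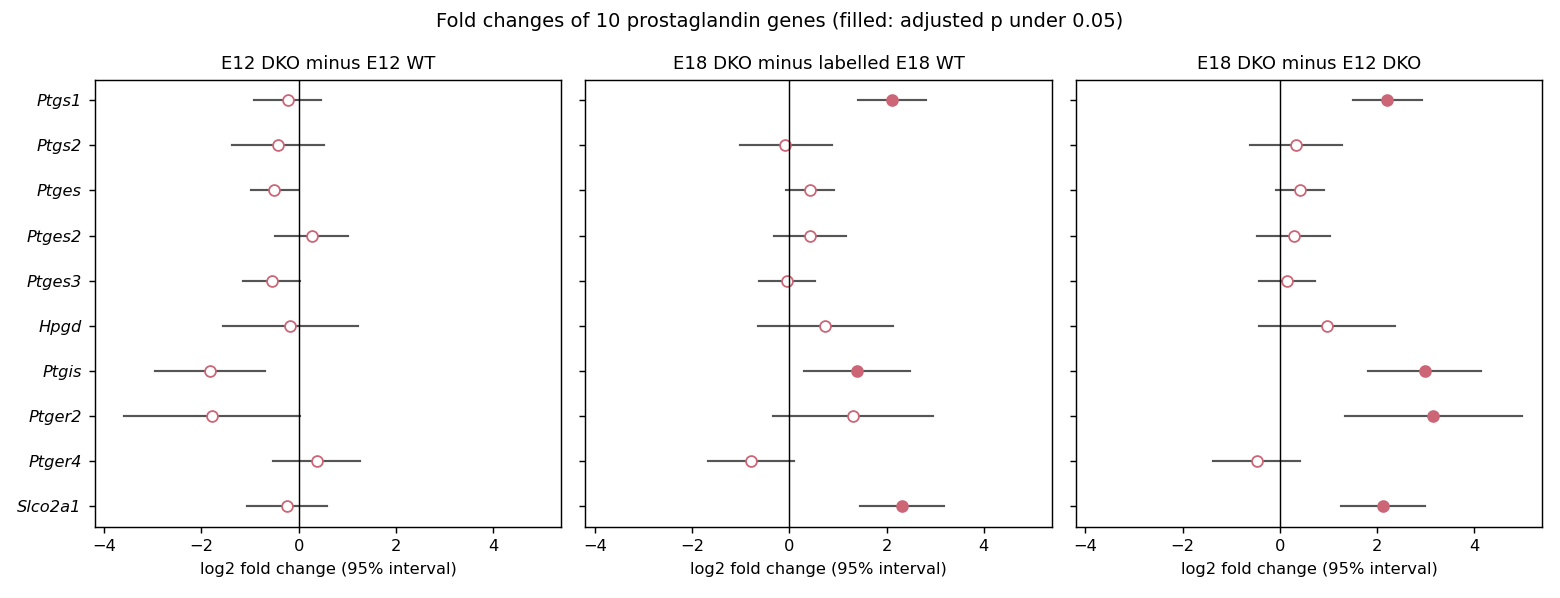
Log2 fold changes of the 10 genes (horizontal axis) in 3 comparisons, with 95% intervals from the quasi-likelihood fit over all 12 libraries. Filled points passed an adjusted p of 0.05. None was filled at E12, 3 were for DKO against WT at E18, and 4 between the DKO days, all of them higher.

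Counted together, 0 of the 10 members passed at E12, where 0.353% of all tested genes did. The DESeq2 Wald test called 1, Ptgis, and at an unadjusted p under 0.05 there were 2, Ptges and Ptgis, among 4416 of all genes. At E18 3 of 10 passed, all higher in DKO, against 42.3% of all tested genes called in either direction and 20.5% higher. Groups did not overlap in 2 members at E12 (30.1% of all genes) and in 4 at E18 (56.9%). In either direction the share of members called at E18 was thus below that of all genes, and in the higher direction above it, by 1 member of 10. The median log2 difference of the members was -0.34 at E12 and 0.59 at E18, against -0.08 and -0.04 over all tested genes. With scaling by library size alone the medians of all genes were 0.22 and -0.41, so small differences depend on the scaling. Of 10 members, 5 were called at E18 with E12 WT 1 and the third library labelled E18 WT both left out, and 2 at E12 (Hpgd higher, Ptges3 lower). Over all genes 9159 were then called at E18 and 3753 at E12, against 7678 and 64 with all libraries. The added calls are thus not particular to the members.

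The genotype effect differed between the labelled days for 5 members by a test of the difference itself, each of these 5 more positive at E18 (41.9% of all genes were called, 21.6% higher). Ptgs1 had a difference of 2.34 ± 0.44 (adjusted p = 0.00217), Slco2a1 of 2.57 ± 0.54 (0.0037) and Ptgis of 3.22 ± 0.71 (0.00495). Ptges, at 0.93 ± 0.31 (adjusted p = 0.0338), and Ptger2, at 3.10 ± 1.12 (0.044), passed by less, and each lost its call in 11 of 20 alternatives. With scaling by library size alone Ptges was at 0.28 (adjusted p = 0.53). Ptgs2 was at 0.36 ± 0.61 (adjusted p = 0.659). Ptger4 went the other way, at -1.16 ± 0.57, and missed the threshold (adjusted p = 0.123). It was called lower with scaling by library size alone (-1.83, adjusted p = 0.0241), without E12 WT 1 (-1.69, 0.016) and with the third library labelled E18 WT left out as well (-1.56, 0.0283). Ptges3, at 0.51 (adjusted p = 0.293), was 0.76 and called without E12 WT 1 (0.0456) and 0.13 without E12 WT 3 (0.733). Without E12 WT 1 the Slco2a1 difference was 1.85 and still called (adjusted p = 0.000559). The same E18 WT libraries with embryonic globins enter this difference.

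Between the DKO days, whose globins matched their labels, 4 of 10 members rose from E12 to E18 and 0 fell, where 46% of all genes changed and 23.2% rose. Ptgis rose by 2.98 ± 0.53 (adjusted p = 0.00125), Ptgs1 by 2.21 ± 0.32 (0.000423), Slco2a1 by 2.12 ± 0.39 (0.00152) and Ptger2 by 3.15 ± 0.83 (0.00976). For each the 3 libraries of E18 lay above the 3 of E12. Hpgd also did not overlap between the days but missed the threshold (0.97 ± 0.64, adjusted p = 0.229). It was called when those 6 libraries were fitted alone (adjusted p = 0.0217). The groups did not overlap in 5 members, and in 67.2% of all genes. Ptgs2 was at 0.33 ± 0.43 (adjusted p = 0.552), Ptges at 0.41 ± 0.22 (0.152), Ptges2 at 0.28 ± 0.34, Ptges3 at 0.15 ± 0.26 and Ptger4 at -0.48 ± 0.41.

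No member passed between the libraries labelled E18 WT and E12 WT (0.953% of all genes called) or for E12 DKO set against the E18 WT label (0.187%). By edgeR, 3292 and 1657 of all genes had an unadjusted p under 0.05 there, among them Ptges in the first and Ptgis and Ptger2 in the second. The DESeq2 Wald test called 0 members in either. These comparisons share libraries with those above, and their values stand side by side only.

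Per length, the members kept much of their order in 3 of the 4 groups. Ptges3 was highest in E12 DKO, E12 WT and the libraries labelled E18 WT, at means of 90.3 ± 5.01, 88.0 ± 24.6 and 103 ± 22.1 TPM (SD, n = 3). Slco2a1 followed at 28.8 ± 3.85, 24.2 ± 18.0 and 24.7 ± 5.55 TPM, then Hpgd and Ptges, with Ptger4 and Ptger2 last. In E18 DKO, Slco2a1 (92.2 ± 14.4 TPM) and Ptges3 (73.5 ± 7.53) led and their ranges overlapped. Ptgs1 stood at rank 4 there, at 16.2 ± 3.09 TPM, and at rank 7 in the other groups, at 4.76 ± 0.206 TPM in E12 DKO. Its E18 DKO range overlapped those of its neighbours Hpgd and Ptges. Ptgs2 had a mean of 6.08 to 8.85 TPM in each group, at rank 8 in E18 DKO. Neighbours overlapped in 2 of the 9 steps of the order in E12 DKO, and in 7 of the 9 in E18 DKO. They also overlapped in most steps in E12 WT and in the libraries labelled E18 WT.

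**Figure D4:**
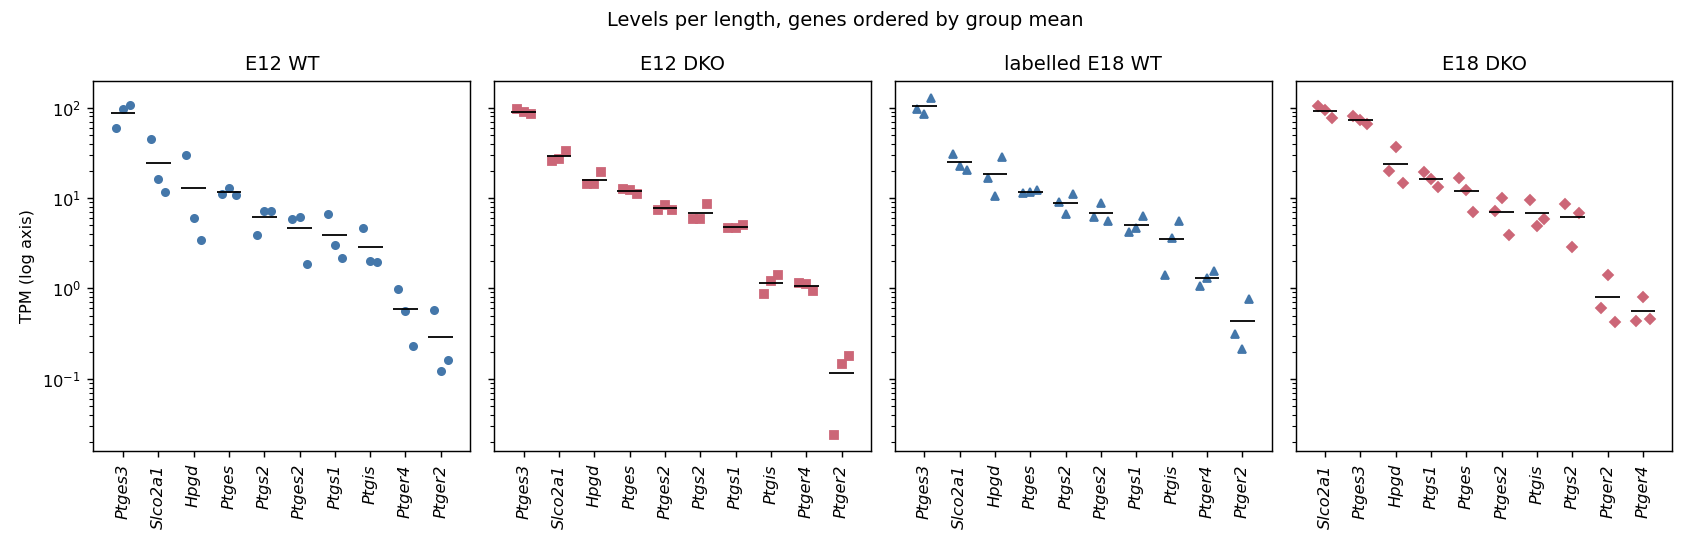
TPM (log axis) of the 10 genes in each group, ordered by the group mean (bars, n = 3), with 1 point per library. Ptges3 led in 3 groups, while in E18 DKO Slco2a1 led at a mean of 92.2 TPM and Ptgs1 stood at rank 4, against 7 elsewhere.

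Marker genes of the tissue's cell types also differed between E18 DKO and the libraries labelled E18 WT, in both directions. Of all tested genes 42.3% were called in that comparison and 20.5% were higher. The counts of called markers below are to be read against those shares. Summed macrophage markers (8 genes) were at 838 to 1190 CPM in E18 DKO, against 323 to 430 CPM under the E18 WT label, with 4 of 8 higher and 2 lower, and Csf1r alone held 588 to 804 CPM of the sum. Epithelial markers of amnion type (10 genes) were at 6360 to 8260 against 2530 to 3200 CPM, with 5 of 10 higher and 2 lower. That sum was mostly the keratins Krt8, Krt18 and Krt7 (1460 to 1850, 2060 to 2880 and 1370 to 1840 CPM in E18 DKO). The other 2 higher were Krt19 and Epcam. The 2 lower were Gabrp (0.128 to 0.218 against 4.52 to 269 CPM) and Tfap2a (0.938 to 1.15 against 3.66 to 8.86 CPM). Endothelial markers (8 genes) were at 402 to 473 against 212 to 385 CPM, with 2 of 8 higher and 1 lower. Mesenchymal markers (8 genes) were at 3460 to 6240 against 13700 to 29800 CPM, with 2 of 8 higher and 5 lower. The 5 lower were Col1a1, Col1a2, Col3a1, Twist1 and Postn, and the 3 collagens made up most of the sum under the E18 WT label. The 2 higher were Pdgfrb (102 to 124 against 65.0 to 91.3 CPM) and Vim (819 to 1500 against 319 to 574 CPM). Decidual markers (6 genes, 4 tested) were at 497 to 539 against 109 to 290 CPM, with 3 higher and 1 lower. That sum was Cryab, Hand2 and Wnt4 (149 to 196, 135 to 174 and 173 to 216 CPM in E18 DKO), while the decidual transcripts Prl8a2, Prl3c1 and Pgr were at 0 to 0.512 CPM there. Mast cell markers (6 genes, 4 tested, 2 higher) were at 19.7 to 49.9 against 7.58 to 12.2 CPM. The 2 called were Cma1 (4.09 to 7.53 against 0.205 to 0.739 CPM) and Tpsb2 (1.96 to 10.7 against 0.0586 to 0.123 CPM). Kit, at 12.4 to 33.4 CPM in E18 DKO, was not called, and Ms4a2 was at 0 there. Neutrophil markers (8 genes, 4 tested) were at 189 to 277 against at most 5.25 CPM, with 2 higher and 1 lower. That sum was mostly Cxcr2 (219, 274 and 174 CPM), and the defining granule and surface markers Mpo, Elane, Camp, Ngp and Ly6g were at 0 to 0.171 CPM in E18 DKO. Platelet markers (7 genes), whose cells are known for Ptgs1, were at 30.5 to 69.3 against 38.4 to 79.5 CPM, with 0 of 7 higher and 1 lower. Smooth muscle markers (7 genes, 1 higher) were at 691 to 1290 against 375 to 766 CPM, and those of yolk sac endoderm (8 genes, 3 higher) at 81000 to 163000 against 53300 to 81300 CPM. Primitive red cell markers (3 genes, 3 lower) were at 17.3 to 19.0 against 6050 to 7710 CPM. Definitive red cell markers (4 genes, 2 lower) were at 1000 to 1880 against 2100 to 5050 CPM. Trophoblast markers (8 genes, 5 tested, 0 called) were at 1.32 to 36.1 against 7.30 to 731 CPM. Those of uterine muscle (4 genes, 3 tested, 0 called) were at 153 to 255 against 48.6 to 196 CPM. Of all marker lists, Synb of the trophoblast list alone was at 0 counts in each library. The part of these cell types in the rises of Ptgs1, Slco2a1 and Ptgis was not tested.

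The rest of the pathway was read from 5 lists of 69 symbols, 66 of them in the table and 51 tested. At E12 0 of 51 passed edgeR's test, and 11 (21.6%) had an unadjusted p under 0.05, against 24.3% of all tested genes. At E18 23 (45.1%) were called, 10 higher and 13 lower in DKO, with a median of -0.25, against 42.3% of all tested genes. The share is near that background, so the counts of each list below are not a result about the pathway. Among the phospholipases 2 of 13 were higher and 4 lower. Pla2g4a, the cytosolic enzyme that frees arachidonic acid, was at 13.6, 11.9 and 11.4 CPM in E18 DKO, against 26.8, 23.8 and 36.7 CPM under the E18 WT label. It was lower in E18 DKO (-1.24 ± 0.22, adjusted p = 0.00137), the groups not overlapping, as for 56.9% of all genes.

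Among the other terminal synthases and reductases 1 of 12 was higher and 2 lower. Akr1b3, an aldo-keto reductase able to make prostaglandin F2alpha, was at -1.37 ± 0.25 (adjusted p = 0.00152), and its relative Akr1b8 at -2.33 ± 0.50. The carbonyl reductase Cbr2 was at 3.43 ± 0.96 (adjusted p = 0.0146), from 1.24 to 3.68 CPM in E18 DKO against 0.117 to 0.410. Without library 3 labelled E18 WT it was at 4.04, and its call ended without library 1 (adjusted p = 0.0554) or 2 (0.0611). The other receptors and nuclear receptors had 2 of 9 higher and 2 lower. These 4 are named after their values were seen. Ppard, a nuclear receptor for fatty acids, was at 28.2, 21.5 and 39.3 CPM in E18 DKO, against 12.0, 14.6 and 12.3 CPM under the E18 WT label (1.19 ± 0.22, adjusted p = 0.0017). Ptger1, another E receptor, was at 94.4, 86.9 and 100 CPM against 65.7, 68.9 and 60.9 CPM (0.53 ± 0.14, adjusted p = 0.0104), and at 0.16 and not called with scaling by library size alone (0.392). Tbxa2r, the thromboxane receptor, was at 5.61, 5.97 and 5.45 CPM against 9.01, 8.64 and 9.19 CPM (-0.66 ± 0.24, adjusted p = 0.0431). Its call ended when any 1 of these 6 libraries was left out (adjusted p = 0.0693 to 0.106) and with no filter (0.0978). The groups did not overlap for any of these 3, as for 56.9% of all genes. Ptgfr, the receptor for prostaglandin F2alpha, was at 0, 0.171 and 0.163 CPM against 0.415, 1.32 and 4.35 CPM. Its fitted value of -4.09 (adjusted p = 0.0178) was -2.88 without library 3 labelled E18 WT, no longer called (0.0724), and the call also ended without E18 DKO 1 (0.0588).

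Other breakdown and transport genes had 1 of 6 higher and 2 lower. The organic anion transporter Slco3a1 was at 36.6, 31.9 and 22.3 CPM in E18 DKO, against 2.60, 3.11 and 5.50 CPM under the E18 WT label (3.02 ± 0.39, adjusted p = 0.000284). Abcc4, which exports prostaglandins, was at 4.78, 7.63 and 24.0 CPM against 86.2, 102 and 51.3 CPM (-2.72 ± 0.63, adjusted p = 0.00579), and at -3.68 without E18 DKO 3. Of the transporters, Slco2a1 and Slco3a1 rose and Abcc4 fell in the same libraries, a grouping made after the values were seen. Slco4a1, at -3.23 ± 1.86, was not called (adjusted p = 0.181). Ptgr1, a reductase of the step after Hpgd, fell (-1.97 ± 0.38, adjusted p = 0.00227).

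In the lipoxygenase and leukotriene branch 4 of 11 were higher and 3 lower. Alox12b, a lipoxygenase of the epidermal barrier, was at 30.1, 21.9 and 22.1 CPM in E18 DKO, against 2.30, 1.29 and 1.23 CPM under the E18 WT label (3.94 ± 0.47, adjusted p = 0.000192). Markers of cornifying epidermis (7 genes, 4 tested, 2 higher) were at 159 to 205 against 4.69 to 24.0 CPM in the same libraries. That sum was mostly Sbsn (201, 161 and 144 CPM), and the defining markers Lor, Krt1, Ivl and Flg were at 0 to 0.708 CPM in E18 DKO. The leukotriene receptor Cysltr1 fell (-2.22 ± 0.34, adjusted p = 0.00067), as did Lta4h, which makes leukotriene B4 (-0.87 ± 0.15, adjusted p = 0.00127).

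The genes whose log2 CPM followed Hpgd most closely over the 12 libraries were Grb10 (Pearson r = 0.965), Corin (0.964), Nek1 (0.963), Bmpr2 (0.960) and Wdr37 (0.951). For Ptgs2 they were Csf2ra (0.874), Gmeb1 (0.856), Lyl1 (0.846), Trmt1l (0.844) and Tada2a (0.840). The libraries share stage, genotype and depth, and the correlations are descriptions of the best of many genes.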

How the data were processed

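The submitters' processing notes list Trimmomatic 0.36, STAR 2.4.2a, featureCounts and Subread 1.5.0, with the build GRCm38. Counting ran over the exons of each Ensembl gene on the reverse strand, per the file headers. The authors deposited raw gene counts, 1 library per column. The series table supplied E12 DKO 1, whose own file lacks counts; the files of the other 11 each equal 1 column of that table. The deposited exon length gave TPM.

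Counts were filtered with filterByExpr, scaled by TMM and fitted in edgeR 4.0.16 (R 4.3.3) with a quasi-likelihood model of 4 group means over 12 libraries (residual degrees of freedom 8, common BCV, the biological coefficient of variation, 0.373). SE is the absolute log2 fold change over the square root of F, and intervals (95%) use the test's total degrees of freedom. Symbols were found for 48349 of 48795 IDs. In counts simulated for 18153 genes, 100 were changed 2-fold and 100 were changed 4-fold. Of these, 4% of 2-fold and 52% of 4-fold changes were called at E12, and 6% and 52% at E18. In the data 42.3% of tested genes were called at E18, so the simulated shares do not give the power of that comparison.

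The members, lists and tests were chosen with earlier results of these data known. The text names all members, up to 6 genes of the 5 pathway lists with the lowest adjusted p, all called genes of a list with 3 or fewer, and the 5 genes most like Ptgs2 and Hpgd with a mean of 5 CPM or more. Alternatives were DESeq2 1.42.0 size factors and Wald test, library size alone, limma 3.58.1 voom, other filters, the compared groups alone, the replicate number as a block, and libraries left out.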

Additional observations from a re-analysis of the deposited data

Results flagged for a closer look

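For 5 of the 10 genes the DKO to WT difference itself differed between the labelled days, by edgeR's quasi-likelihood test of the difference adjusted by Benjamini-Hochberg across every tested gene. On the log2 scale, and with the E18 difference the higher in each case, it was 2.34 ± 0.44 (SE) for Ptgs1, a cyclooxygenase (adjusted p = 0.00217). It was 2.57 ± 0.54 for the transporter Slco2a1 (adjusted p = 0.0037) and 3.22 ± 0.71 for the prostacyclin synthase Ptgis (adjusted p = 0.00495). It was 0.93 ± 0.31 for the E synthase Ptges (adjusted p = 0.0338) and 3.10 ± 1.12 for the receptor Ptger2 (adjusted p = 0.044). Of all tested genes 41.9% passed the same test. The libraries labelled E18 WT, with their embryonic globins, enter each value, and the part of their stage was not tested.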

How the results depend on the processing

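Ptgs1 and Slco2a1 stayed called at E18, in the difference between the days and between the DKO days under every alternative run. Depth limits Ptger2, with 16 counts in E12 DKO. The number of all genes called at E12 (64) was 2085 by the DESeq2 Wald test, 0 with the compared groups alone and 3753 with E12 WT 1 and the third library labelled E18 WT both left out, and leaving out 1 library gave 1 to 3199, the highest without E12 WT 1. Members called there (0) were 1 by the Wald test and 2 without both libraries, and 0 to 1 with 1 library left out. Members called at E18 (3) were 5 without both libraries, where the calls over all genes went from 7678 to 9159. They were 2 with the compared groups alone and with the replicate number as a block. They were also 2 without E18 DKO 1 and without library 1 or 2 labelled E18 WT. Members called in the difference (5, all higher) were 3 with no filter, 4 with library size alone (3 higher, 1 lower), 7 without both libraries (6 higher, 1 lower), and 3 to 6 with 1 library left out, the highest without E12 WT 1 (5 higher, 1 lower). The lower one was Ptger4 each time. Between the WT groups (173 genes called) library size alone gave 272, the Wald test 1223, the compared groups alone 56, leaving out both libraries 1028, and 1 library 35 to 1684. For E12 DKO against the libraries labelled E18 WT (34) the Wald test gave 247, limma voom 16, the compared groups alone 73, and 1 library left out 9 to 26. The cause of these moves was not tested.

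Signs turned in these cases, none of them called in the fit of all libraries. With library size alone, the E12 values were 0.10 for Ptgs1, 0.17 for Hpgd and 0.08 for Slco2a1. The difference between days was then -0.31 for Ptgs2, -0.46 for Ptges2 and -0.17 for Ptges3, and the DKO days differed by -0.03, -0.05 and -0.20. With limma voom Hpgd was at 0.34 at E12. With E12 WT 1 and the third library labelled E18 WT both left out, the E12 values were 0.31 for Ptgs1, 1.21 for Hpgd and 0.47 for Slco2a1, the E18 values 0.09 for Ptgs2 and 0.11 for Ptges3, and the differences -0.16 for Ptges2 and -0.05 for Hpgd. Leaving out 1 library gave at E12 -0.43 to 0.31 for Ptgs1, -0.03 to 0.45 for Ptges2, -0.57 to 1.21 for Hpgd and -0.50 to 0.47 for Slco2a1. At E18 it gave -0.32 to 0.29 for Ptgs2 and -0.18 to 0.11 for Ptges3, and in the difference -0.11 to 0.45 for Ptges2 and -0.47 to 1.33 for Hpgd.

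With the replicate number as a block, 5 genes were called at E12, 77 between the WT groups and 21 for E12 DKO against the libraries labelled E18 WT. The block left 3 members called in the difference, without Ptges (adjusted p = 0.0506) and Ptger2 (0.0659), and 2 at E18, without Ptgis (0.0596), and Hpgd at E12 was at 0.05. Same-numbered libraries did not deviate together (correlations of -0.099, -0.033 and -0.176 at E12 and 0.010, 0.030 and -0.004 at E18), so the numbers were not taken as pairs.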
